A study of Mus musculus with 17 samples.

Results

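The early innate lymphoid progenitor (EILP) of mouse bone marrow was compared with the natural killer (NK) cell of the same tissue, to describe which parts of the NK gene program were at background and which already gave signal in the progenitor. The comparison took the 1 array whose cell type is given as EILP and the 2 arrays titled NK, which makes 3 of the 17 arrays of the study. The other 14 arrays hold the hematopoietic stem cell (HSC), the lymphoid-primed multipotent progenitor (LMPP), the common lymphoid progenitor (CLP) and the flt3+ and flt3- common myeloid progenitors (CMP) of marrow, and the ETP and DN3 populations of thymus, with 2 arrays each. The cells were pooled from chimeric mice, made by giving marrow of TCF-1 GFP reporter donors to lethally irradiated B6 CD45.1 recipients. The mice were used after 12 weeks of reconstitution, and no other treatment or allele is given. EILP was sorted by flow cytometry. The description of the sort does not list NK cells, and how they were isolated is not given in the sources used here. Whether EILP and NK cells came from the same pools of mice is therefore not known. Neither the number of mice in a pool nor whether the arrays of 1 population came from separate pools is stated, so p-values measure the spread between these arrays, which may be technical.

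EILP is known as a TCF-1 expressing marrow cell that gives rise to NK cells and the other innate lymphoid cells. NK cells kill target cells by releasing perforin and granzymes, and a balance of activating receptors, which signal through adaptor proteins, and inhibitory receptors for MHC class I decides whether they do so. The T-box factors Eomes and T-bet, the inhibitor of DNA binding Id2 and the cytokine IL-15, received through Il2rb, are known to be needed for their development.

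Values are log2 expression levels of 22180 genes on the Affymetrix Mouse Gene 2.0 ST array, each gene measured by 1 probe set, and the array medians lay between 4.45 and 4.62. Probe sets differ in brightness, so a level is compared between arrays and not between genes. A difference is EILP minus NK on the log2 scale, with the standard error (SE) of a limma fit over all 17 arrays. The threshold for a call was an adjusted p of less than 0.05, after Benjamini-Hochberg correction for the whole array. With 1 EILP array the fit assumes that EILP varies like the other populations, and a simulation of the same layout recovered 41% of genes changed by 1 and 98% of genes changed by 2 on the log2 scale. The background level of an array was the 95th percentile of 1445 genes for olfactory and vomeronasal receptors and keratin-associated proteins, at 4.82 in EILP and 4.90 and 4.80 in NK. A gene at or below it may still be transcribed, and its fold change against the brighter population is then set by the background.

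The labels were set against marker genes. All of Ncr1, Klrb1c, Klrk1, Eomes, Prf1, Gzma, Il2rb and Itga2 were above background on both NK arrays. Genes linked to EILP, namely Tox, Id2, Zbtb16, Nfil3, Itgb7 and Cd244a, were above background in EILP. They were above background on both NK arrays and on both LMPP arrays too, so being above background does not tell the EILP array from NK or LMPP. Tcf7, which encodes TCF-1, was not analysed here because the annotation gives it no probe set of its own. The NK arrays also held the T-cell receptor chain genes Cd3d, at 5.42 in EILP against 8.09 and 8.16 in NK, and Cd3g, at 4.18 against 7.55 and 7.80, while Cd3e stayed under background on all 3 arrays. Neutrophil genes were bright on the EILP, NK, CLP and LMPP arrays. Their mean log2 level over 14 genes was 10.71 in EILP against 9.63 and 9.97 in NK. It was 10.49 and 10.66 in CLP, and 9.55 and 9.37 in LMPP. On the thymus arrays Camp was at 4.79 and 3.86 in ETP and 3.35 and 3.70 in DN3, against 12.05 in EILP. Ltf, Ngp and S100a8 were also lower there than in EILP. The mean of 12 monocyte and macrophage genes was 7.03 in EILP against 6.36 and 6.33 in NK, 6.75 and 6.82 in CLP, and 5.88 on both LMPP arrays. The 3 Y-linked genes measured averaged 7.12 in EILP and 7.03 and 7.22 in CLP against 3.17 and 3.21 in NK and 3.25 and 3.27 in LMPP. Xist was at 9.24 in EILP and 8.97 and 9.44 in CLP against 11.37 and 11.24 in NK. In LMPP Xist was at 11.51 and 11.60. The Y-linked Eif2s3y had means of 3.32 in HSC, 3.27 in flt3+ CMP and 3.18 in flt3- CMP, against 8.56 in EILP. A difference in the sex of the pooled mice therefore cannot be told apart from the population in EILP minus NK or in EILP minus LMPP. In such bulk samples, fewer cells of a type and less RNA per cell cannot be told apart either.

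Most activating and lectin-like receptor genes of the NK program and 7 of 12 cytotoxic effectors were lower in EILP than in NK. The adaptors Tyrobp, Fcer1g and Hcst were not called, nor were most granule assembly and release genes and most homing genes. Of all 21 measured adaptor and signalling genes 7 were lower. Over the whole array 772 genes (3.48%) were called in EILP minus NK, 423 lower (1.91%) and 349 higher (1.57%) in EILP, 645 genes (2.91%) differed at least 2-fold, and the median difference over all genes was -0.05. The NK program was described by 11 lists with 176 genes, of which 158 were measured. Of these 158 genes, 76 were lower (75 of them at least 2-fold), 5 were higher and 77 were not called, with a median difference of -1.29. A total of 140 were above background on both NK arrays. In EILP, 41 of those 140 (29.3%) were at or below background, against 396 of the 9233 genes (4.29%) that were above background on both NK arrays over the whole array. A further 36 were above background and lower than in NK, 59 were above background and not called, and 4 were above background and higher. Of the 9233 genes of the whole array, 253, 8339 and 245 fell into these 3 groups. No filter on low levels was applied, so every measured member was tested.

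**Figure D1:**
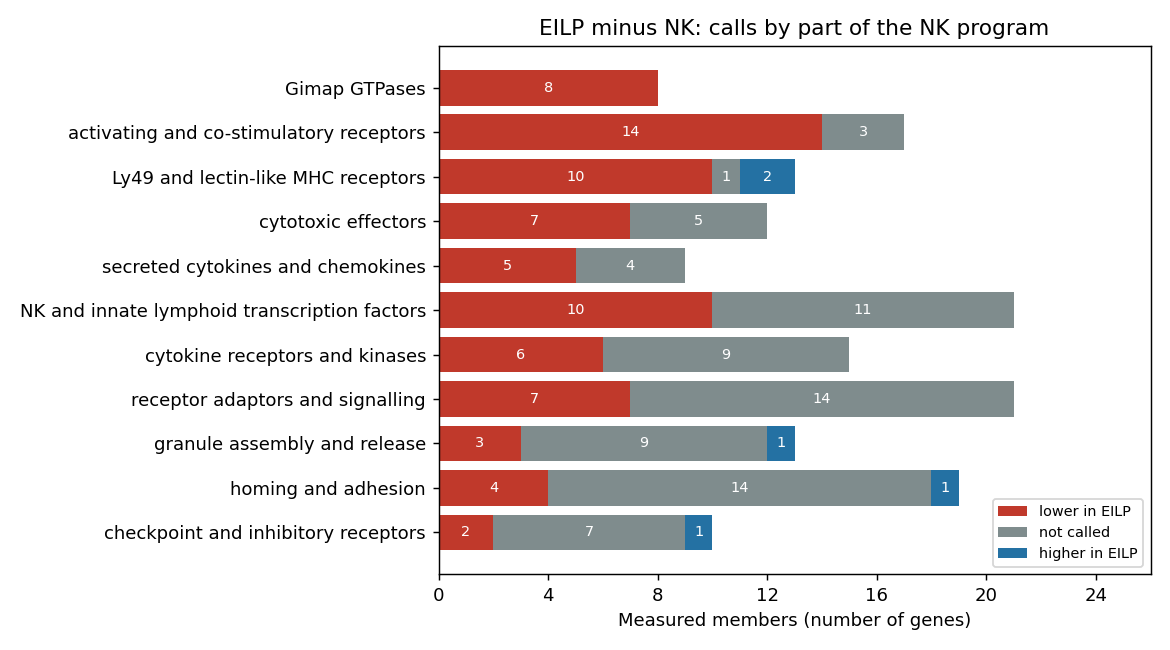
Number of measured genes in each of the 11 NK program lists that were lower in EILP than in NK (red), not called (grey) or higher in EILP (blue). All 8 Gimap genes and 14 of 17 genes of the activating and co-stimulatory list were lower. Of the homing genes 14 of 19 were not called, and of the adaptor and signalling genes 14 of 21.

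**Figure D2:**
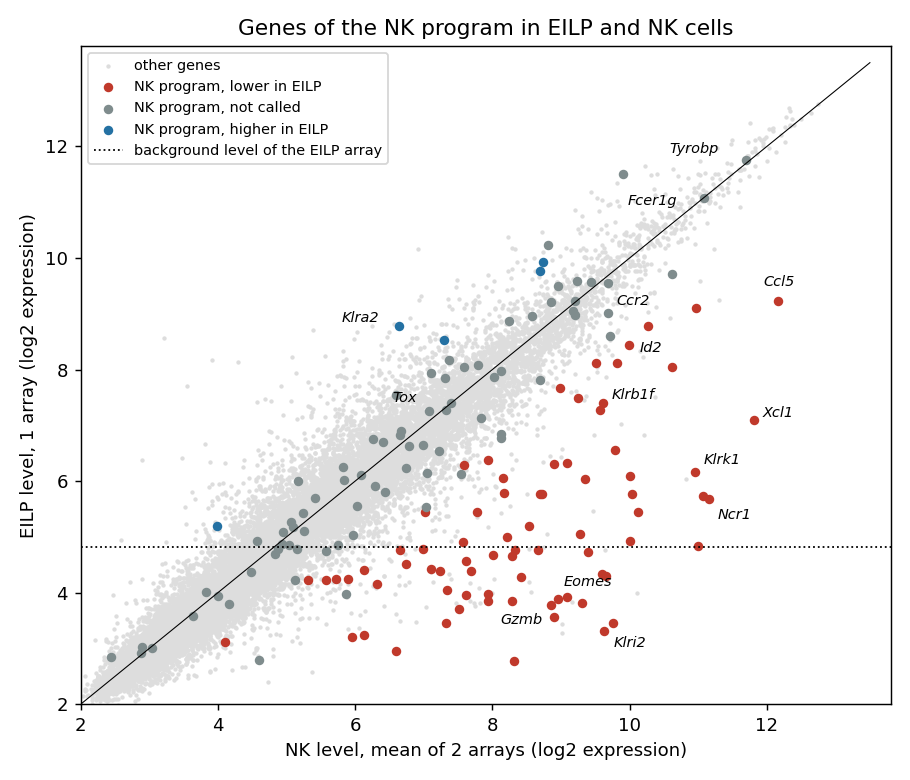
Log2 level on the EILP array (vertical) against the mean of the 2 NK arrays (horizontal), with each point a gene. NK program genes are coloured by their call, the diagonal marks equal levels and the dotted line marks the EILP background of 4.82. Eomes, Gzmb and Klri2 lie under the dotted line, while Tyrobp, Fcer1g and Tox lie near the diagonal.

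Among the transcription factors, the T-box pair was at background in EILP while several factors linked to early innate lymphoid cells were not called. Of 21 measured factors 10 were lower, none was higher and 11 were not called, with a median difference of -0.68. Eomes, the T-box factor of NK cell maturation, had a level of 3.89 in EILP against 8.96 and 8.97 in NK, a difference of -5.07 ± 0.27 (adjusted p = 8.9e-08). Tbx21, which encodes T-bet, had 4.52 in EILP against 6.73 and 6.76 in NK, a difference of -2.23 ± 0.19 (adjusted p = 1.1e-05). Both EILP values lay below every NK value and under the EILP background. The other factors at or below background in EILP were Ikzf3 (Aiolos), at 3.71 against 7.61 and 7.41 in NK, Lef1, at 4.43 against 6.68 and 7.52, Bhlhe40, at 4.78 against 6.84 and 7.14, and Prdm1 (Blimp-1), at 4.22 against 5.61 and 5.02. Prdm1 lost its call without NK replicate 1 (difference -0.81, adjusted p = 0.11). Lef1 was also high in CLP, at 7.30 and 7.66, and lower in EILP than in CLP by -3.05 (adjusted p = 0.00016).

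A second group of factors was present in EILP and lower than in NK. Id2, the inhibitor of E proteins that innate lymphoid cells need, had 8.44 in EILP against 10.07 and 9.92 in NK, a difference of -1.56 ± 0.28 (adjusted p = 0.0067). EILP nevertheless lay above all 10 arrays of the marrow progenitors, with 6.18 and 6.14 in LMPP and 7.57 and 7.58 in CLP. The difference from CLP was not called. Stat4, a signal transducer of the IL-12 receptor, had 8.04 in EILP against 10.42 and 10.83 in NK. Ets1 and Foxo1 differed by -1.56 and -1.57, and Foxo1 was lower in EILP than in any marrow progenitor array.

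Tox, Nfil3 and Zbtb16, which are known to act early in innate lymphoid development, were not called and their EILP values were close to those of NK. Tox had 7.25 in EILP against 7.23 and 6.91 in NK, a difference of 0.18 ± 0.31 (adjusted p = 0.86). Nfil3 had 6.70 in EILP against 6.29 and 6.54 in NK. Zbtb16, which encodes PLZF, had 6.26 in EILP against 6.24 and 5.40 in NK. For each of the 3 genes the EILP value was at or above both NK values and above all 10 marrow progenitor arrays. None of the 3 was called against LMPP, with differences of 0.70 for Tox, 1.06 for Nfil3 and 1.05 for Zbtb16. Nfil3 and Zbtb16 exceeded CLP by 1.19 and 1.31 and were not called there either. Tox was higher in EILP than in CLP, whose values were 4.51 and 4.79, by 2.60 (adjusted p = 0.0014). The other factors not called were Tox2, Ikzf2 (Helios), Gata3, Runx3, Irf2, Irf8, Klf2 and Rora, with differences from -0.68 to 0.18. Klf2, at 6.54 in EILP against 6.84 and 7.59 in NK, was called lower without NK replicate 1 (difference -1.05, adjusted p = 0.047).

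Most activating and co-stimulatory receptors were well below their NK level in EILP. Of 17 measured genes 14 were lower in EILP and 3 were not called, with a median difference of -2.76. Ncr1, the gene of the activating receptor NKp46 and a defining marker of NK cells, had 5.67 in EILP against 11.12 and 11.18 in NK, a difference of -5.48 ± 0.24 (44.5-fold, adjusted p = 1.8e-08). Klrk1, which encodes the activating receptor NKG2D, had 6.17 in EILP against 10.94 and 10.96 in NK, a difference of -4.78 ± 0.27 (27.4-fold, adjusted p = 2e-07). Both were far below NK in EILP and yet above its background. To show the DNA next to the starts of these genes, the 250 bases before the start site are printed for Ncr1 (chr7:4337465-4337714, plus strand) and Klrk1 (chr6:129623865-129624114, minus strand), together with Gzmb (chr14:56262335-56262584, minus strand), an effector at background in EILP, and Fcer1g (chr1:171234350-171234599, minus strand), an adaptor whose EILP value lay between those of NK. The sequences are from RefSeq, build GRCm38.p6, read 5′ to 3′, and capitals mark the core letters of a RUNX motif (TGTGGT or ACCACA), a T-box motif (AGGTGT or ACACCT) or an ETS motif (AGGAAG or CTTCCT).
Ncr1: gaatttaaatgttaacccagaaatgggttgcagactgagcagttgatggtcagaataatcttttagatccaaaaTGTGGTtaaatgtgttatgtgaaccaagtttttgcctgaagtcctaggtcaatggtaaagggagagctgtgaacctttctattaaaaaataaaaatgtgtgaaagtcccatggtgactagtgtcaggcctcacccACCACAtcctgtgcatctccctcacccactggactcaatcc
Klrk1: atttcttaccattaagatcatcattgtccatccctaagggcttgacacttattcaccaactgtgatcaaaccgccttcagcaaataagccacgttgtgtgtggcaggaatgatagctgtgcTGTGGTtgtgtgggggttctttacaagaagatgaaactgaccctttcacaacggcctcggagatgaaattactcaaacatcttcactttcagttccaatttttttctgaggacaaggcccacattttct
Gzmb: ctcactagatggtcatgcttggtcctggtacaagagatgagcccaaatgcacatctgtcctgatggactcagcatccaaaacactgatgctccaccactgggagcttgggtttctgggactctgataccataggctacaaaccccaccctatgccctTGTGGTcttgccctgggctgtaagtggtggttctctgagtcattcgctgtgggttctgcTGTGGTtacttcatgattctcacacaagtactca
Fcer1g: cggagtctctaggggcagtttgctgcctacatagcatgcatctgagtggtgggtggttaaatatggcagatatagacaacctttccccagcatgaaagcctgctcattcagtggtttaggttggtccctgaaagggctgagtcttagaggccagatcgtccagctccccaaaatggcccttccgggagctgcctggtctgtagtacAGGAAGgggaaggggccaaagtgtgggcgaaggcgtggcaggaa

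RUNX motif letters occurred at 2 places before Ncr1, 2 before Gzmb and 1 before Klrk1, and the window of Fcer1g held 1 ETS motif. Promoters were found for 57 of the 76 NK program genes that were lower in EILP and for 61 of the 77 that were not called. RUNX letters were in 20 of the 57 (35.1%) and in 16 of the 61 (26.2%), against 2051 of all 16990 promoters (12.1%). ETS letters were in 25 of the 57 (43.9%) and in 33 of the 61 (54.1%), against 28.4% of all promoters. T-box letters were in 4 of the 57 (7.02%) and in 7 of the 61 (11.5%), against 11.3% of all. These letters describe the windows, and no binding was measured.

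Other receptors of this list divided by whether EILP was above background. Klrb1c, the gene of NK1.1, had 4.28 in EILP against 8.23 and 8.60 in NK. Klrb1b, an inhibitory receptor that the list also holds, had 3.77 against 8.59 and 9.13. Cd226 (DNAM-1), an adhesion receptor for nectin-like ligands, had 3.82 against 9.59 and 9.02. These genes, with Cd2, Slamf6, Cd160 and Tnfrsf9, were at or below background in EILP, and Tnfrsf9 (4-1BB) lost its call without NK replicate 2 (difference -0.92, adjusted p = 0.18). Klrb1f, another member of the NKR-P1 family, had 7.40 in EILP against 9.66 and 9.56 in NK, a difference of -2.21 ± 0.26 (adjusted p = 0.00021). Cd7 had 6.55 in EILP against 9.41 and 10.15 in NK, a difference of -3.23 ± 0.34 (adjusted p = 8.7e-05). Both were above background in EILP and above all 10 marrow progenitor arrays.

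Slamf7, Ly9 and Cd27 were above background in EILP and lower than in NK, by -2.76, -1.77 and -1.29. The call of Cd27, a co-stimulatory receptor of the TNF receptor family, was lost without either NK array (adjusted p = 0.052 without replicate 1 and 0.10 without replicate 2). Slamf6, at 4.38 in EILP against 7.69 on both NK arrays, was at 7.89 and 7.69 in CLP, and EILP was lower than CLP by -3.41 (adjusted p = 0.00012). Fcgr3, the low-affinity Fc receptor CD16, had 7.84 in EILP against 7.06 and 7.56 in NK and was not called (difference 0.53 ± 0.28, adjusted p = 0.41). Crtam, at 3.98 in EILP against 4.84 and 6.89 in NK, was not called with both NK arrays and was called without NK replicate 1 (difference -2.91, adjusted p = 6.8e-06).

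The list of Ly49 and other lectin-like receptors, not all of which bind MHC class I, had the lowest median of all 11 lists, at -3.63. Of 13 measured genes 10 were lower, 2 were higher and 1 was not called. Klri2 had 3.32 in EILP against 9.51 and 9.75 in NK, a difference of -6.31 ± 0.23 (79.5-fold, adjusted p = 7.4e-09). Klra9 had 3.45 in EILP against 9.74 and 9.77 in NK, a difference of -6.30 ± 0.24. Klre1 had 4.84 in EILP against 11.10 and 10.87 in NK, a difference of -6.15 ± 0.27. These were the 3 largest falls among the named genes, and in EILP the genes were at or near background. Klrc1 and Klrc2, the genes of the inhibitory NKG2A and the activating NKG2C chain, had 4.29 and 2.77 in EILP, under background, with differences of -5.36 and -5.54. Klrd1, which encodes CD94, their partner chain, had 5.74 in EILP against 11.03 and 11.11 in NK and stayed above background. The Klr genes are near-identical in part, and probe sets can bind the transcripts of a relative, so a single member is uncertain.

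Against this pattern, 2 members of the family were higher in EILP. Klra2 had 8.78 in EILP against 6.76 and 6.51 in NK, a difference of 2.15 ± 0.28 (adjusted p = 0.00051). CLP had 8.14 and 8.63 and LMPP had 6.05 and 5.63, so the level was shared with CLP. Klra17 had 5.19 in EILP against 3.80 and 4.15 in NK, both below background there, and lost its call without NK replicate 1 (difference 1.04, adjusted p = 0.086). Klra6, at 2.80 in EILP against 3.40 and 5.81 in NK, was not called with both NK arrays and was called without NK replicate 1 (difference -3.01, adjusted p = 4.7e-05).

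Most of these receptors lie next to each other in the NK gene complex of chromosome 6. The stretch from Klrb1 to Klra2, in RefSeq order, was chosen after the values were seen and held 43 measured genes. Of these 18 were lower in EILP, 7 were higher and 18 were not called. The Klr genes of the stretch counted 15 lower and 2 higher of 20, and the C-type lectin genes of the Clec type, with Cd69 and Olr1, counted 2 lower and 4 higher of 12. All 9 measured genes from Klre1 to Klri2 were lower in EILP. This run lies between Gabarapl1 and Klrh1, which were not called, so its count follows from where it was cut. Between the Klrb1 and the Klre1 blocks lay the 4 lectin genes that were higher in EILP. Of these Clec7a, which encodes the myeloid receptor dectin-1, had 8.78 in EILP against 6.52 and 5.97 in NK. Clec12a had 10.51 in EILP against 9.25 and 9.53 in NK, and Olr1 had 7.93 against 6.71 and 6.03. The activation marker Cd69 had 5.86 in EILP against 8.05 and 7.61 in NK.

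**Figure D3:**
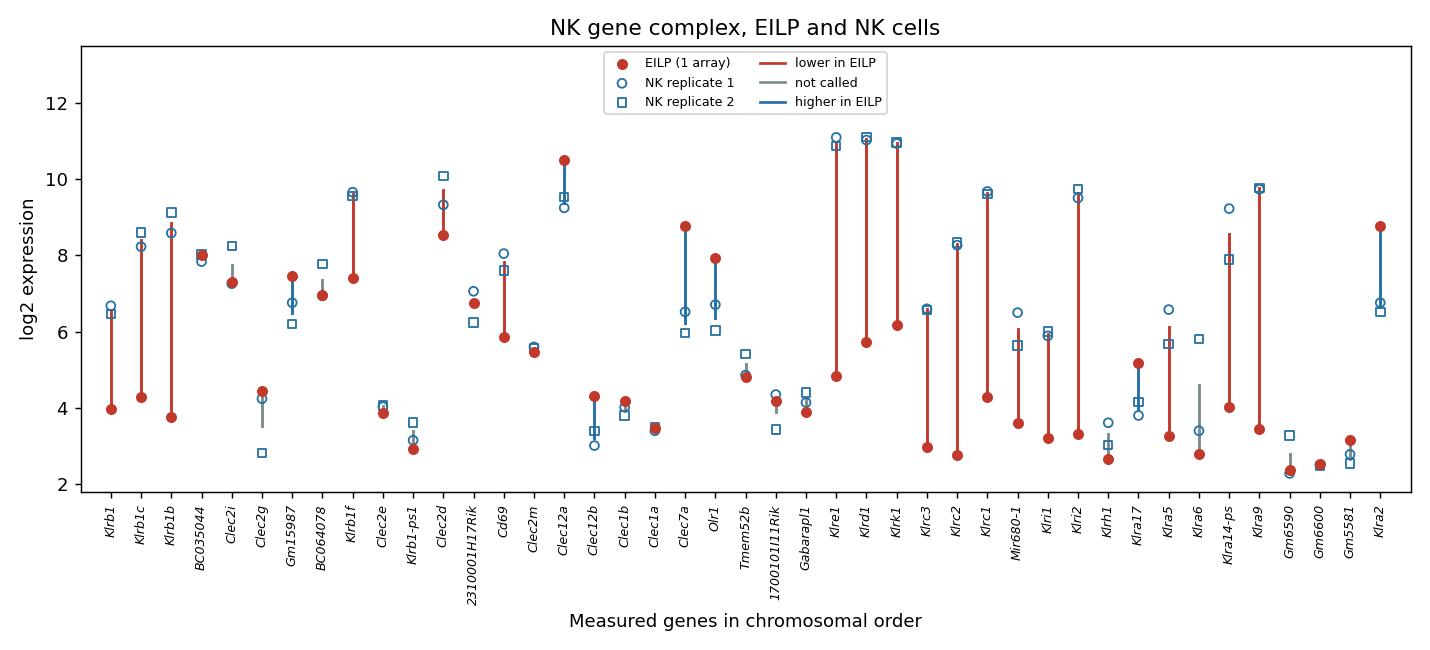
Log2 level of the 43 measured genes of the NK gene complex in chromosomal order, for the EILP array (filled red circles) and both NK arrays (open blue symbols). Lines join EILP to the NK mean and are coloured by call. The run from Klre1 to Klri2, cut where the calls stopped, is lower in EILP in 9 of 9 genes, while Clec12a, Clec7a, Olr1 and Klra2 are higher.

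The checkpoint and inhibitory receptors outside this complex moved less. Of 10 measured genes 2 were lower, 1 was higher and 7 were not called, with a median difference of 0.20. Tigit, an inhibitory receptor that shares ligands with Cd226, was at 3.97 and below background in EILP against 8.30 and 7.57 in NK. Cd96, of the same receptor family, had 6.30 in EILP against 9.02 and 8.76 in NK. Pilra had 8.52 in EILP against 7.28 and 7.30 in NK, and its call was lost without either NK array (adjusted p = 0.10 without replicate 1 and 0.11 without replicate 2). The 2 highest differences that were not called were those of Lilrb4a, 1.61 ± 0.56, and Ceacam1, 1.42 ± 0.41. Havcr2 (Tim-3) and Pdcd1 (PD-1) were below background on all 3 arrays.

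Among the adaptors that carry the signal of the activating receptors, Tyrobp and Fcer1g had EILP values within the range of the NK arrays, and Hcst was lower without being called. Tyrobp, which encodes DAP12, had 11.76 in EILP against 11.53 and 11.86 in NK, a difference of 0.06 ± 0.24 (adjusted p = 0.95). Fcer1g, the Fc receptor gamma chain through which NKp46 signals, had 11.08 in EILP against 10.91 and 11.25 in NK, a difference of 0.00 ± 0.25. Hcst (DAP10), the partner of NKG2D, had 9.71 in EILP against 10.25 and 10.99 in NK, a difference of -0.90 ± 0.32 (adjusted p = 0.18). The EILP value of Hcst lay below both NK values. Tyrobp and Fcer1g were also bright in CLP, where Tyrobp had 11.47 and 11.57 and Fcer1g 10.67 and 10.91. Both genes are also expressed in myeloid cells, whose genes were brighter in EILP and CLP than in NK and LMPP, as given above, and their part in these levels was not tested.

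Downstream of the adaptors the list split. Of 21 measured signalling genes 7 were lower in EILP and 14 were not called, with a median difference of -0.34. The lower genes included Txk, a Tec family kinase, at 3.85 in EILP against 7.83 and 8.73 in NK (difference -4.43 ± 0.30, adjusted p = 1.2e-06), and Skap1, at 3.96 against 7.52 and 7.70. Fyn, a Src family kinase, had 4.99 in EILP against 8.07 and 8.35 in NK, and EILP was lower than all 10 marrow progenitor arrays. Sh2d1a, which encodes the SLAM receptor adaptor SAP, Sh2d2a and Zap70 were at or below background in EILP, with differences of -3.29, -3.05 and -1.47, and Prkcq differed by -2.38. Syk, Vav1, Plcg2, Lcp2 (SLP-76), Ptpn6 (SHP-1) and Inpp5d (SHIP-1) were above background on all 3 arrays and were not called, with differences from -0.23 to 0.63. Sh2d1b1, which encodes the adaptor EAT-2, had 5.53 in EILP against 6.54 and 7.52 in NK and was not called (difference -1.50 ± 0.50, adjusted p = 0.15). Cd247 and Lck were not analysed here.

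Within the killing machinery, a larger share of the cytotoxic effectors than of the granule assembly and release genes was lower in EILP. Of 12 measured cytotoxic effectors 7 were lower in EILP and 5 were not called, with a median difference of -1.43. Gzmb, whose promoter is printed above and whose product triggers apoptosis in targets, had 3.57 in EILP against 8.66 and 9.14 in NK, a difference of -5.33 ± 0.38 (40.4-fold, adjusted p = 1.6e-06). Gzma had 5.44 in EILP against 10.40 and 9.84 in NK, a difference of -4.68 ± 0.39 (adjusted p = 7.7e-06). Prf1, the pore-forming perforin, had 5.44 in EILP against 7.35 and 8.20 in NK, a difference of -2.34 ± 0.28 (adjusted p = 0.00028). Gzmb was under background in EILP, as were Gzmk, at 4.65 against 7.78 and 8.81 in NK, and Fasl, at 3.85 against 7.89 and 7.96, whereas Gzma and Prf1 were above it. Prf1 was at 5.29 and 4.84 in HSC and Gzma at 6.14 and 5.74 in CLP, also above the background of those arrays. Nkg7, a granule membrane protein gene, was bright in both cell types, with 9.10 in EILP against 10.84 and 11.11 in NK (difference -1.87 ± 0.21).

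The remaining effectors gave little signal. Gzmd, Gzmf and Gzmg were below background on all 3 arrays. Gzmc was called at 3.11 in EILP against 4.34 and 3.88 in NK, all below background, and the call was lost without NK replicate 1 (adjusted p = 0.053). Gzmm had 5.56 in EILP against 5.46 and 6.58 in NK and Tnfsf10 (TRAIL) had 4.78 against 4.73 and 5.57, and neither was called.

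In contrast, 9 of 13 measured genes for granule assembly and release were not called, 3 were lower and 1 was higher in EILP, and the median difference was 0.29. Srgn (serglycin), the proteoglycan that holds granzymes in the granule, had 9.58 in EILP against 9.19 and 9.27 in NK. Ctsc, the protease that activates granzymes, had 8.96 in EILP against 8.32 and 8.82 in NK. Rab27a, which docks granules, had 8.08 in EILP against 7.62 and 7.96 in NK, and Lyst, a regulator of lysosome-related granules, had 9.50 against 8.84 and 9.09. In each of these 4 genes EILP was above both NK arrays, by less than the test could call. Lamp2, a lysosome membrane gene, was higher in EILP, at 9.76 against 8.59 and 8.80 in NK (difference 1.06 ± 0.20, adjusted p = 0.0074). The lower genes were Ctsw, at 6.10 in EILP against 9.69 and 10.32 in NK, and the protease inhibitors Serpinb9 and Serpinb6b, at 4.38 and 4.76 in EILP, both at background, with differences of -2.85 and -3.90. Many of these genes also serve the granules of neutrophils and macrophages, whose marker lists were brighter in EILP than in NK, and their part in these values was not tested.

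The 6 cytokine receptor and kinase genes that were lower in EILP were all above background there. Of 15 measured genes 6 were lower in EILP and 9 were not called, with a median difference of -1.10. Il2rb, the shared beta chain of the IL-2 and IL-15 receptors, had 4.92 in EILP against 9.68 and 10.32 in NK, a difference of -5.08 ± 0.27 (33.7-fold, adjusted p = 8.6e-08). Its EILP value was just above the background of that array and lay above all 10 marrow progenitor arrays. Il18r1, a chain of the IL-18 receptor, had 7.28 in EILP against 9.50 and 9.63 in NK, a difference of -2.29 ± 0.19 (adjusted p = 8.5e-06). Its partner Il18rap had 8.12 in EILP against 9.44 and 9.58 in NK, and that call was lost without either NK array (adjusted p = 0.055 without replicate 1 and 0.094 without replicate 2). Il12rb2 had 6.03 in EILP against 9.31 and 9.40 in NK, and Jak1 had 8.78 against 10.19 and 10.36.

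Il7r, the receptor chain for IL-7, had 6.06 in EILP against 8.22 and 8.10 in NK, a difference of -2.10 ± 0.34 (adjusted p = 0.0028). CLP, which is defined by this receptor, had 9.65 and 9.78, and EILP was lower than CLP by -3.66 (adjusted p = 0.00016). Il10ra, at 6.13 in EILP against 7.10 and 7.99 in NK, was not called (adjusted p = 0.059) and was called without NK replicate 1 (difference -1.86, adjusted p = 0.016). Tgfbr2 was not called although it was below background in EILP, at 4.74 against 5.50 and 5.65 in NK. Il2rg and Jak3 were not analysed here.

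Among 9 measured secreted factors 5 were lower in EILP and 4 were not called, with a median difference of -2.93. Xcl1, a chemokine for dendritic cells, had 7.09 in EILP against 11.84 and 11.78 in NK, a difference of -4.72 ± 0.37 (adjusted p = 4.6e-06). Ccl5 had 9.23 in EILP against 12.06 and 12.27 in NK, a difference of -2.93 ± 0.46 (adjusted p = 0.0025). Both chemokine genes were lower than in NK, and the EILP array was above all 10 marrow progenitor arrays. Xcl1 exceeded CLP by 0.66 and Ccl5 by 1.49, and neither was called. Ifng, the main NK cytokine, was below background in EILP, at 3.46 against 7.70 and 6.96 in NK (difference -3.87 ± 0.28, adjusted p = 1.7e-06). Ccl3 had 5.77 in EILP against 9.91 and 10.16 in NK, and Ccl4 had 5.05 against 9.12 and 9.42. Tnf, at 7.54 in EILP against 6.13 and 7.04 in NK, was not called (difference 0.95 ± 0.35, adjusted p = 0.19) and was called higher without NK replicate 2 (difference 1.41, adjusted p = 0.039).

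Most homing and adhesion genes were not called between EILP and NK. Of 19 measured genes 4 were lower, 1 was higher and 14 were not called, with a median difference of -0.05. Ccr2, a chemokine receptor for exit from marrow, had 9.02 in EILP against 9.73 and 9.63 in NK, a difference of -0.66 ± 0.36 (adjusted p = 0.43). Cxcr4, which retains cells in marrow, had 9.56 in EILP against 9.35 and 9.54 in NK, and the integrin gene Itga4 had 9.55 against 9.49 and 9.88. Itgb7, part of the integrin used to sort EILP in other work, had 6.11 in EILP against 5.48 and 6.69 in NK. For Itga4 and Itgb7 the EILP value lay between those of NK, for Cxcr4 it was just above both and for Ccr2 it was below both. Itga2, which encodes the NK marker CD49b, was at 3.93 and below background in EILP against 8.95 and 9.21 in NK, a difference of -5.15 ± 0.25 (adjusted p = 3.3e-08). S1pr1, a receptor for exit into blood, was also below background in EILP, at 4.15 against 5.96 and 6.67 in NK. Itgam, the CD11b chain, was higher in EILP, at 9.93 against 8.73 on both NK arrays (difference 1.20 ± 0.24, adjusted p = 0.011), and Itgal, at 7.67 against 8.71 and 9.24, lost its call without NK replicate 2 (difference -1.04, adjusted p = 0.11). Cxcr3, at 5.03 in EILP against 5.46 and 6.48 in NK, was called lower without NK replicate 1 (difference -1.45, adjusted p = 0.031).

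The Gimap genes, a cluster of GTPases that support lymphocyte survival, were lower in EILP in 8 of 8 cases, with a median difference of -3.14. Gimap4 had 4.73 in EILP against 9.06 and 9.73 in NK, a difference of -4.66 ± 0.27 (adjusted p = 2.2e-07). Gimap3 had 4.76 in EILP against 8.15 and 8.51 in NK. Gimap1, Gimap3, Gimap4 and Gimap7 were below background in EILP, and Gimap1 lost its call without NK replicate 2 (difference -1.63, adjusted p = 0.059) and with the mean of its probe sets (difference -0.76, adjusted p = 0.12). Gimap6 had 5.77 in EILP against 8.32 and 9.13 in NK and 8.07 and 8.21 in LMPP, so EILP was below both the mature cell and the earlier progenitor. EILP was lower than LMPP in 3 of the 8 genes, Gimap5, Gimap6 and Gimap9, of which Gimap6 kept that call without either LMPP array.

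Whether the NK genes that gave signal in EILP were above the level of an earlier progenitor was asked with EILP minus LMPP, where 864 genes (3.90%) were called, 466 higher (2.10%) and 398 lower (1.79%) in EILP. Among the 158 NK program genes 25 were higher in EILP than in LMPP and 8 were lower. The comparison shares the EILP array with EILP minus NK, and the difference in Y-linked genes and Xist given above holds for it too. Klrk1 was at 6.17 in EILP against 4.49 and 4.10 in LMPP, a difference of 1.88 (adjusted p = 0.0015). Id2 exceeded LMPP by 2.28 (adjusted p = 0.00046), Cd7 by 2.03 (adjusted p = 0.0043), Klrb1f by 1.64 (adjusted p = 0.0028) and Il18r1 by 1.41 (adjusted p = 0.00093). In each of these 5 genes EILP lay above both LMPP arrays and below both NK arrays.

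Ncr1, Il2rb, Xcl1 and Ccl5 were also called higher than in LMPP, but these calls rested on 1 LMPP array. Ncr1 was at 5.67 in EILP against 4.73 and 4.22 in LMPP, a difference of 1.20 (adjusted p = 0.013), and without LMPP replicate 2 it was 0.94 (adjusted p = 0.084). Without the same array Il2rb (adjusted p = 0.11), Xcl1 (adjusted p = 0.13) and Ccr2 (adjusted p = 0.053) were not called, and without LMPP replicate 1 Ccl5 was not called (adjusted p = 0.11). The number of NK program genes higher than in LMPP was 20 without LMPP replicate 1 and 16 without replicate 2, and 13 of the 25 kept their call under both. These 13 were Id2, Klrk1, Klrb1f, Cd7, Fcgr3, Klra2, Pilra, Tyrobp, Fcer1g, Lyst, Il18r1, Itgam and Itgb2. Itgam, Itgb2, Fcgr3, Klra2, Pilra, Tyrobp and Fcer1g are genes of myeloid cells too, and the neutrophil and monocyte lists were brighter in EILP than in LMPP, with 5 of 14 and 6 of 12 genes called higher. The part of those cells in these calls was not tested. The 8 genes lower than in LMPP were Ikzf2, Cd27, Plcg1, Il12rb2, Ccl4, Gimap5, Gimap6 and Gimap9, and 2 of them, Cd27 and Gimap6, kept the call without either LMPP array.

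Against CLP, whose neutrophil and monocyte means were near those of EILP, 81 genes (0.365%) were called, 9 higher (0.0406%) and 72 lower (0.325%) in EILP. None of the 14 neutrophil or 12 monocyte and macrophage genes was among them. Of the NK program genes 3 were higher in EILP, Tox, Ikzf2 and Klrk1, and 6 were lower, Foxo1, Lef1, Slamf6, Slamf7, Il7r and Gimap4. Klrk1 was at 6.17 in EILP against 4.62 and 4.73 in CLP, a difference of 1.49 (adjusted p = 0.033), and lost its call without either CLP array (adjusted p = 0.15 without replicate 1 and 0.12 without replicate 2). Tox and Ikzf2 kept theirs, as did Il7r, Lef1 and Slamf6 among the lower genes, while those of Foxo1, Slamf7 and Gimap4 were lost without either CLP array. Ikzf2 had 6.63 in EILP against 4.83 and 4.47 in CLP. Id2, Klrb1f and Il18r1 exceeded CLP by 0.86, 0.53 and 0.50 and were not called. Ncr1 exceeded CLP by 0.72 and Cd7 by 1.28, and neither was called (adjusted p = 0.37 and 0.21).

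**Figure D4:**
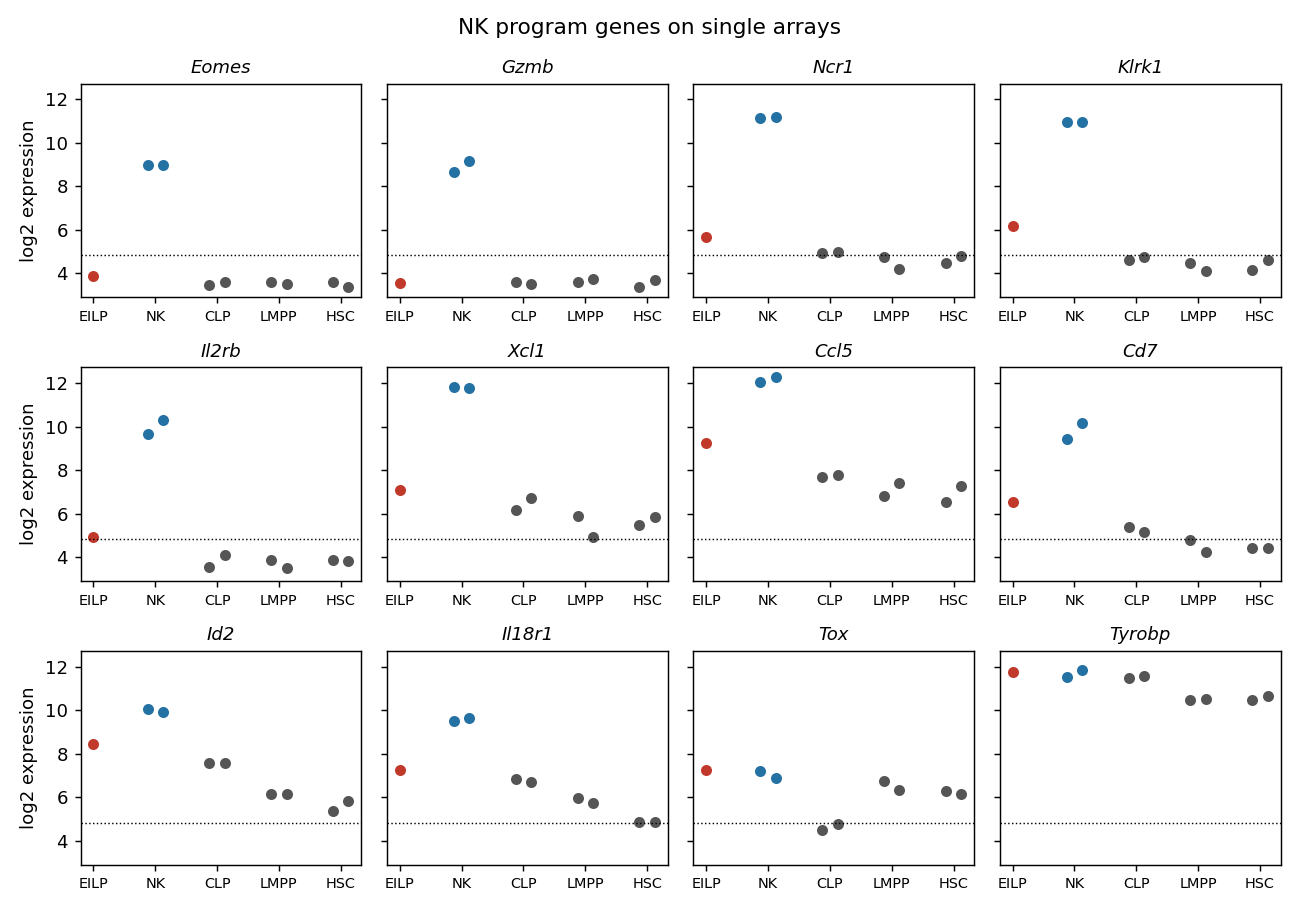
Log2 level of 12 NK program genes on single arrays of EILP (red), NK (blue) and, as dark points, CLP, LMPP and HSC; the dotted line marks the EILP background of 4.82. Eomes and Gzmb are under the line in EILP, and the EILP points of Tox and Tyrobp lie beside those of NK. The EILP points of Ncr1, Klrk1, Cd7, Id2 and Il18r1 lie between the progenitors and NK, and of these only Klrk1 was called against CLP.

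The position of EILP among the marrow progenitors was also counted without a test. In 59 of the 158 NK program genes (37.3%) the EILP array exceeded all 10 arrays of HSC, LMPP, both CMP populations and CLP, against 12.3% of all genes. In 7 genes (4.43%) it lay below all 10, against 12.0% of all genes. Of the 76 genes lower in EILP than in NK, 26 (34.2%) exceeded all 10 progenitor arrays. Of these, Eomes, Prdm1, Klrb1c, Klrb1b, Tnfrsf9, Klra9, Klrc1, Klrc2, Klrc3, Klri2, Klrg1, Zap70 and Txk were at or below background in EILP. Eomes, for example, was at 3.89 in EILP with 3.62 on the highest progenitor array, so such a rank is one among background values. The 59 genes also held Itgam, Tyrobp, Fcer1g, Fcgr3 and Klra2, which are genes of myeloid cells too. The part of those cells in this count was not tested. Of the 10 arrays only those of CLP were near EILP in the Y-linked genes. A difference in sex therefore cannot be told apart from the population in this count either.

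To reach NK genes outside the lists, genes were chosen that were called and at least 4-fold higher in NK than in HSC, a contrast without EILP, LMPP or CLP arrays. This gave 148 genes (0.667%). Of these 121 were lower in EILP than in NK, 27 were not called and none was higher, a comparison that shares the NK arrays with the choice of genes and is given as a description. Of the 144 genes above background on both NK arrays, 65 (45.1%) were at or below background in EILP. In EILP minus LMPP 18 of the 148 were higher and 5 were lower, against the 2.10% and 1.79% of all genes given above. Its difference uses other arrays than the choice, but both share the variances of the fit. These counts are therefore not independent of the choice and are given as a description. Without LMPP replicate 2 the count of higher genes was 10 and without replicate 1 it was 15.

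Of these 18 genes 7 were not called against NK and were named after their values were seen: Ccr2, Pik3r5, Aoah, Sema4a, Prkcb, Atp8b4 and Ifi204. Atp8b4, a gene of a membrane lipid flippase, had 9.39 in EILP against 8.79 and 9.16 in NK, with 7.63 and 7.73 in LMPP. Prkcb, a protein kinase C gene, had 7.62 in EILP against 8.11 and 8.50 in NK, with 6.19 and 5.99 in LMPP. Sema4a had 7.19 in EILP against 7.58 and 8.25 in NK, with 6.01 and 5.22 in LMPP. In CLP, whose neutrophil and monocyte means were near those of EILP, Atp8b4 had 8.44 and 8.79, Prkcb 8.22 and 8.07, Sema4a 6.80 and 7.06, and Ifi204 8.48 and 8.05 against 7.81 in EILP. None of the 7 was called in EILP minus CLP, and the part of myeloid cells in these levels was not tested. Among the largest falls outside the lists were Samd3, at 3.44 in EILP against 8.88 and 9.15 in NK, and Khdc1a, at 3.84 against 9.05 and 9.28.

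Of the genes that were higher in EILP than in NK, the Y-linked Eif2s3y had the largest difference, at 8.56 in EILP against 3.23 and 3.19 in NK. Outside the Y-linked genes, predicted genes and antigen receptor segments, which were not ranked, Apol11b came first, at 7.71 in EILP against 3.53 and 3.56 in NK (difference 4.16 ± 0.25, adjusted p = 3.5e-07), and CLP had 6.54 and 7.14. Cpa3, a carboxypeptidase of mast cells and early progenitors, had 10.16 in EILP against 7.29 and 6.54 in NK (difference 3.25 ± 0.41, adjusted p = 0.00033) and was higher in EILP than in CLP by 2.90. Clec4a1, Sirpb1c, Il1b, Il1r2, Clec7a and Tlr13, genes of myeloid cells, rose by 3.31, 2.78, 2.65, 2.52, 2.54 and 2.68, and Tlr13 lost its call without NK replicate 1 (difference 1.79, adjusted p = 0.086). Of the mast cell and basophil list 1 of 8 genes, Cpa3, rose and 1, Cma1, fell, and of the neutrophil list 3 of 14 rose (Ltf, Mmp9 and Cd177). These 3 calls were lost without NK replicate 1, with adjusted p of 0.11 for Ltf, 0.13 for Mmp9 and 0.14 for Cd177.

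Part of the stem and progenitor list was higher in EILP than in NK. Of 19 measured genes 6 were higher in EILP, none was lower and 13 were not called, with a median difference of 0.89. Erg, a stem cell ETS factor, had 7.70 in EILP against 6.08 and 5.61 in NK (difference 1.85 ± 0.24, adjusted p = 0.00049). Spi1 (PU.1) had 8.48 in EILP against 6.60 and 7.02 in NK, and Cd34 had 7.51 against 5.60 and 6.23. The calls of Cd34 and Kit were lost without NK replicate 1 (adjusted p = 0.14 and 0.082). Against LMPP 11 of the 19 genes were lower in EILP. None of 17 cell division genes was called between EILP and NK, and 1 of 18 DNA replication genes, Rrm1, was higher in EILP, a call lost without NK replicate 2 (adjusted p = 0.085).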

How the data were processed

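RNA was extracted with Trizol, amplified with a NuGEN Pico kit, biotin-labelled and hybridised, per the labels' protocols. The authors deposited a table of log2 values for 41345 probe sets on 17 arrays, made with Affymetrix Expression Console per the submitters' processing notes. Its algorithm and version are not given there, and the log2 unit was read from the values (1.58 to 13.77). The scanner files were not used here, so precision is limited by the number of arrays.

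The annotation lists 25335 of the probe sets. The 23521 with 1 gene symbol were used, the 1814 with several and the 16010 unlisted ones were left out, and the probe set with the highest mean was kept for each of 1082 genes with more than 1, leaving 22180 genes. limma 3.58.1 in R 4.3.3 (lmFit, eBayes) fitted 1 mean per population over 17 arrays, with 8 residual and 5.33 prior degrees of freedom, and p-values were adjusted by Benjamini-Hochberg. The fit was tested on simulated data with 100 genes changed at each size and made 3 false calls. Of 176 listed NK genes 18 were not analysed here. All NK list members could be named, with the 12 largest called changes per direction of at least 2-fold (without Y-linked genes, Xist, antigen receptor segments, pseudogenes and genes that are only predicted or encode small RNAs) and up to 4 members of other lists, plus genes said to be chosen after their values were seen. The members and lists were chosen with earlier results of these data known. Promoter sequences are from RefSeq. Alternatives covered scaling, probe set choice, a low-level filter, the arrays in the fit, a variance trend and leaving out arrays.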

Additional observations from a re-analysis of the deposited data

How the results depend on the processing

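No call of a listed or named gene reversed under any alternative. With only the 3 EILP and NK arrays in the fit, which leaves few degrees of freedom, EILP minus NK gave 125 calls, 25 higher and 100 lower in EILP, and 1 NK program gene was higher. Using all probe sets of the table left 3 NK program genes higher in place of 5. Leaving out 1 NK array gave 602 to 736 calls in all, 263 to 282 higher and 320 to 473 lower, with 71 to 77 NK program genes lower and 3 to 5 higher. Centring each array gave 780 calls and quantile normalization 836. Of 119 called genes among the 306 listed or named, 97 kept their call in every alternative but the 3-array fit.

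With background at the 99th percentile, at 6.29 in EILP, 59 NK program genes were above it there in place of 102. Ncr1, Klrk1, Klrd1, Il2rb, Gzma and Prf1 were under this stricter level in EILP. Choosing genes at least 2-fold higher in NK than in HSC gave 63 higher in EILP minus LMPP among 483 genes.

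Leaving out LMPP and CLP arrays was chosen after seeing the data. Without 1 LMPP array, EILP minus LMPP gave 477 to 595 calls, with 16 to 20 NK program genes higher and 2 to 7 lower, and without 1 CLP array EILP minus CLP gave 48 to 57 calls, with 2 NK program genes higher and 3 lower. Without 1 NK array these comparisons gave 939 and 89 calls. The NK genes chosen against HSC and higher in EILP minus LMPP numbered 10 to 23 when 1 LMPP, HSC or NK array was left out. No paired analysis was possible because EILP has 1 array and the labels give it no replicate number. Precision is limited by the single EILP array.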

Other observations

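Genes of other innate lymphoid lineages gave little signal in the comparison. Of 11 measured genes 2 were called, both higher in EILP: Il17rb, the IL-25 receptor chain used by ILC2, at 6.18 in EILP against 4.65 and 4.71 in NK, and Il1r1, at 6.05 against 4.34 and 4.58. Il17rb also exceeded LMPP by 1.47 (adjusted p = 0.042), while Il1r1 had 9.18 on both LMPP arrays. Both calls against NK were lost without either NK array, with adjusted p of 0.10 without each of them for Il17rb, and 0.11 without replicate 1 and 0.068 without replicate 2 for Il1r1.

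Itgax, the CD11c chain that mouse NK cells carry as well as dendritic cells, had 4.25 in EILP against 7.76 and 8.29 in NK (difference -3.78 ± 0.24, adjusted p = 4.7e-07). Of 11 measured B lineage genes Cd79b was lower in EILP, at 5.18 against 6.79 and 6.61 in NK, and Jchain was higher, at 6.35 against 4.17 and 3.61. Jchain was at 7.34 and 6.67 in CLP. Of 12 T lineage genes Cd3d, Cd3g and Cd28 were lower in EILP. None of 4 measured red cell genes was called.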
